A study of Mus musculus with 6 samples.

Results

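The serpins are a family of protease inhibitors, and 48 Serpin genes had a transcript cluster of their own on the arrays of mouse embryonic fibroblasts (MEFs) that carried either 2 normal or 2 altered copies of the retinoblastoma gene Rb1. The members were the genes whose single annotated symbol begins with Serpin and whose mean log2 value over the 6 arrays lay above 5.08, a threshold set by receptor genes of smell that fibroblasts are not known to express. The rule took 17 of the 48 genes, and these were split by clade, the letter that follows the family name. Members were chosen by their mean level alone, so the levels are a description. The genotype difference was not part of the rule. None of the 17 genes had a mean at or below the threshold in either genotype, so none was tested only because 1 genotype was high.

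Serpins share a fold with an exposed reactive loop that acts as bait. A protease that cuts the loop of an inhibitory serpin is trapped in a covalent complex and distorted. Clade A serpins are mostly secreted by the liver, clade B serpins lack a classical signal peptide and guard the cytosol against cathepsins and granule proteases, and other clades regulate clotting, fibrinolysis and complement. Some members inhibit nothing: Serpinh1 (HSP47) is a collagen chaperone of the endoplasmic reticulum, and Serpinf1 (PEDF) is a secreted factor that limits vessel growth. In fibroblasts serpins are known for their part in matrix turnover and in the control of plasminogen activation at the cell surface.

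The labels give 3 Rb1+/+ and 3 Rb1L/L samples. All were MEFs from embryos of embryonic day 13.5, grown to passage 4 in medium with fetal bovine serum and proliferating when total RNA was taken. The labels do not describe the L allele; other work knows it as a change in the cleft of the retinoblastoma protein that binds LXCXE motifs. The design text speaks of MEF pairs and does not say how many embryos were used. The sex-linked genes below differ between replicate 1 and the others of each genotype, so these came from different embryos, and whether replicates 2 and 3 did is not given. No mouse strain is given in the sources used here. In bulk samples, fewer cells of a type and less RNA per cell cannot be told apart.

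All 11 fibroblast markers lay above the level threshold, with a mean log2 level per array of 11.41 to 11.51 in Rb1+/+ and 11.30 to 11.39 in Rb1L/L cultures. Of them 1, Col3a1, fell (by 0.33, limma adjusted p = 0.0112), where 5.08% of all tested genes were lower. With the replicate number as a block Dcn fell too (by 0.31, limma adjusted p = 0.0346, against 0.113 without the block). Of 12 liver markers, 9 lay above the threshold, with means over the 6 arrays from 5.11 (Afp) to 7 (Apoa2), and Alb, Ttr and Apoh lay below it at 3.89, 4.37 and 4.98. The sex-linked genes set the arrays numbered 1 apart: Xist was at 5.13 and 4.79 there and at 11.44 to 11.61 in the other 4, and the Y-linked Eif2s3y at 8.36 and 8.47 against 3.41 to 3.63. Each genotype thus had 1 culture of male type. Without that pair of arrays 87 genes were higher and 5 lower over the whole array, and no Serpin gene passed. The 5 clusters that carry several Serpin symbols were not analysed here. Of these, a cluster shared by 5 Serpina1 genes had a mean of 6.29, above the threshold, and the other Serpina1 cluster lay below it. Clusters shared by Serpinb9 genes had means of up to 5.45.

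The 17 tested genes were spread unevenly over the clades. Of 15 clade A genes 3 were tested, of 24 clade B genes 7, and the single genes of clades C, D, E, G and H and both genes of clade F all were. Neither clade I gene was tested. Over the whole array 15462 of 19938 genes (77.6%) lay above the threshold, against 35.4% of the Serpin genes. The gene nearest above the threshold was Serpind1 at 5.21, with 5.08 in Rb1+/+ replicate 1 and at least 5.19 in the other arrays. The nearest below were Serpinb10 at 4.94 and Serpinb1a at 4.80. Signals of different clusters depend on their probes, so the levels show which genes passed the threshold, not which were most abundant. Passing does not by itself show that a gene was expressed, because some of the receptor genes passed too.

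**Figure D1:**
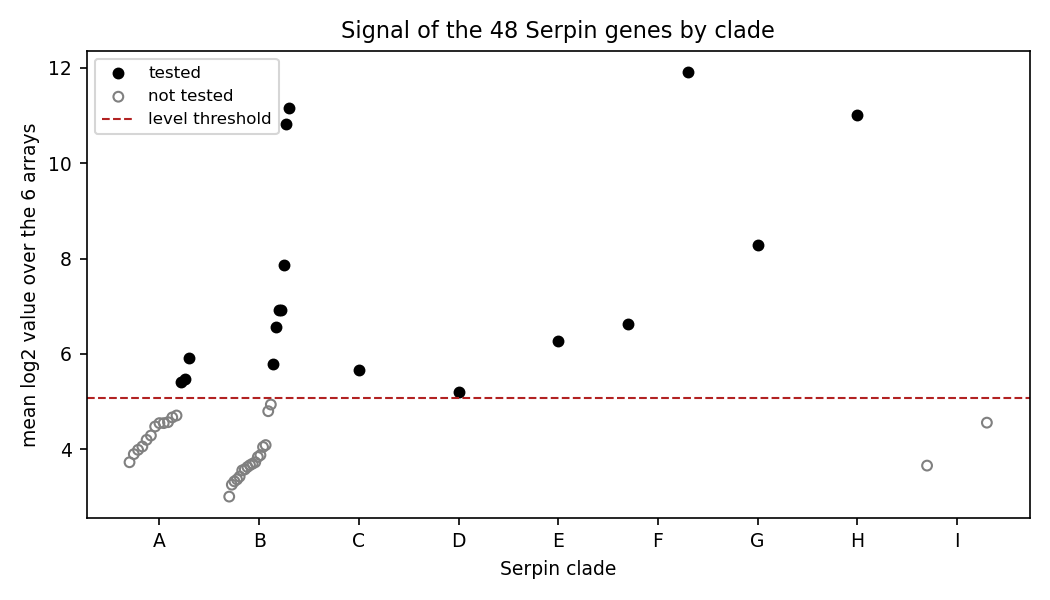
Mean log2 value over the 6 arrays (vertical axis) of the 48 Serpin genes by clade (horizontal axis), with filled points for the 17 tested genes, open points for the 31 others and a dashed line at the level threshold. Clades A and B hold 29 of the 31 genes below the line, and both clade I genes are also below it.

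Between the genotypes, 2 of the 17 tested Serpin genes were higher in Rb1L/L cultures and 1 was lower, at an adjusted p under 0.05 in limma. Serpina3n and Serpinb6a rose and Serpinb6b fell, while 14 genes did not pass. Among all 15462 tested genes 12.2% passed (7.10% higher and 5.08% lower), and 3 of 17 is 17.6%, a share near that background. The median log2 fold change of the 17 genes was -0.054, with 7 above 0 and 10 below, and that of all tested genes was -0.021. After median centring, 883 of all tested genes were higher and 1067 lower, where the deposited scaling gave 1098 and 785. The groups did not overlap for 7 of the 17 genes, against 34.5% of all tested genes, and 8 had an unadjusted p under 0.05, against 28.7%.

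**Figure D2:**
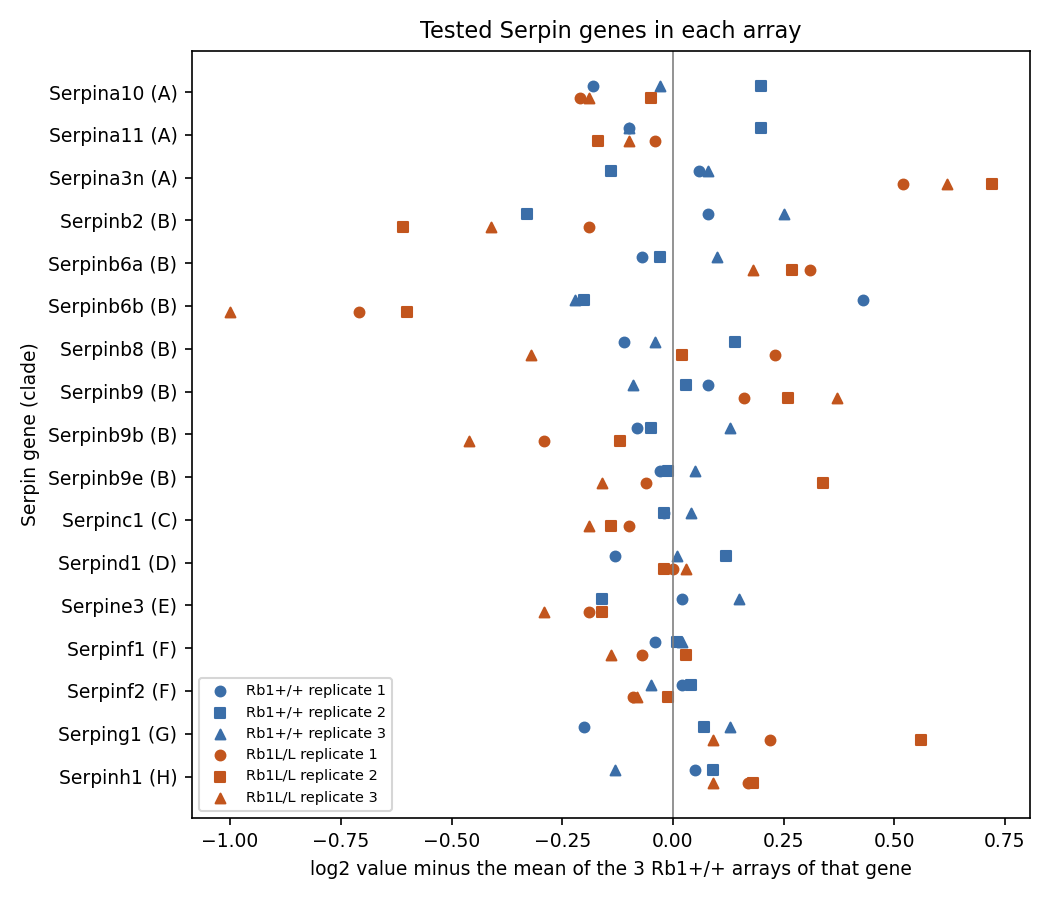
Log2 value in each array minus the mean of the 3 Rb1+/+ arrays of the same gene (horizontal axis) for the 17 tested Serpin genes (vertical axis); blue marks are Rb1+/+ and orange marks Rb1L/L, with 1 shape per replicate number. The orange marks of Serpina3n and Serpinb6a all lie to the right of the blue ones, and those of Serpinb6b all to the left.

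Serpina3n encodes a secreted clade A inhibitor of the acute phase response, related to human antichymotrypsin. It stood at log2 5.66, 5.46 and 5.68 in Rb1+/+ replicates 1, 2 and 3 and at 6.12, 6.32 and 6.22 in the Rb1L/L replicates. Every Rb1L/L culture was above every Rb1+/+ culture, and the gap between the groups was wider than the range within either. The Rb1+/+ values lay near the level threshold, as did those of Serpinc1 and Serpind1. Some receptor genes passed that threshold too, so the level alone does not show that Serpina3n was expressed in Rb1+/+ cultures. The group means were 5.60 ± 0.12 and 6.22 ± 0.10 (SD, n = 3), a rise of 1.54-fold (log2 fold change 0.62 ± 0.08 SE, limma adjusted p = 0.00477). Without both arrays numbered 1 the log2 fold change was 0.70 with a limma adjusted p of 0.0568, and it passed in each fit that left out a single array. Of the 14 clade A genes of chromosome 12 with a cluster of their own, Serpina3n among them, 3 were tested. A cluster shared by 5 Serpina1 genes, not analysed here, had a mean of 6.29.

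The promoter of Serpina3n is shown because this was the Serpin gene with the smallest p. It is the RefSeq window from 250 bases before to 50 after the annotated start, at chr12:104406458-104406757 on the plus strand of GRCm38.p6, and none of the 7 motifs searched was found in it.

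Serpina3n: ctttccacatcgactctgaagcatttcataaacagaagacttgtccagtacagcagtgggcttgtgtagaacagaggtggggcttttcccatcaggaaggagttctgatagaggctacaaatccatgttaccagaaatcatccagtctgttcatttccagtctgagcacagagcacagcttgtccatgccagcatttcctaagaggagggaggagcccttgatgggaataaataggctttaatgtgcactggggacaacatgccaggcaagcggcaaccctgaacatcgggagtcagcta

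The other tested clade A genes did not pass. Serpina10, which inhibits activated clotting factor X together with protein Z, had a log2 fold change of -0.14 ± 0.10 (SE, limma adjusted p = 0.386). Serpina11, whose function is little known, had -0.10 ± 0.09 (SE, adjusted p = 0.504). For both the groups overlapped. Their intervals of -0.37 to 0.09 and -0.31 to 0.11 leave room for small changes in either direction. Below the threshold were Serpina1c, Serpina1d, Serpina1f, Serpina3a, Serpina3b, Serpina4-ps1, Serpina5, Serpina6, Serpina7, Serpina9, Serpina12 and Serpina16, with means from 3.73 to 4.71. They include the genes of the corticosteroid carrier (Serpina6) and the thyroxine carrier (Serpina7) of blood.

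Clade B held the remaining changed genes, a pair of close paralogues that moved in opposite directions. Serpinb6a encodes a cytosolic inhibitor that blocks cathepsin G and related proteases. Its log2 values were 10.62, 10.66 and 10.79 in Rb1+/+ and 11, 10.96 and 10.87 in Rb1L/L replicates 1, 2 and 3. The lowest Rb1L/L culture lay just above the highest Rb1+/+ culture, and these were both numbered 3. The means were 10.69 ± 0.09 and 10.94 ± 0.07 (SD, n = 3), a rise of 1.19-fold (log2 fold change 0.25 ± 0.07 SE, limma adjusted p = 0.0492). The call lay at the edge of the threshold. With the replicate number as a block the limma adjusted p was 0.069, after median centring 0.064 and without the level filter 0.061. Serpinb6a passed after quantile normalization (0.0435), with the mean of the clusters (0.0489) and with array weights (0.034). The same held with a mean above log2 7 (0.0327) and with trended and robust variances (0.0269). Without both arrays numbered 1 the log2 fold change was 0.19 (limma adjusted p = 0.303). It also missed the threshold without any single array other than Rb1+/+ replicate 3: limma adjusted p was 0.131 and 0.108 without Rb1+/+ replicates 1 and 2, and 0.156, 0.14 and 0.0593 without Rb1L/L replicates 1, 2 and 3.

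Serpinb6b, a paralogue near the other end of the same gene group, measured 7.74, 7.11 and 7.09 in Rb1+/+ and 6.60, 6.71 and 6.31 in Rb1L/L replicates 1, 2 and 3. All Rb1L/L cultures were lower, and Rb1+/+ replicate 1 was well above the other Rb1+/+ cultures. The means of 7.31 ± 0.37 and 6.54 ± 0.21 (SD, n = 3) gave a signal 1.71-fold lower in Rb1L/L (log2 fold change -0.77 ± 0.18 SE, limma adjusted p = 0.03, or 0.0125 with the replicate block). Without Rb1L/L replicates 1, 2 or 3 it did not pass (limma adjusted p = 0.0755, 0.0557 and 0.0795), and without both arrays numbered 1 the log2 fold change was -0.59 (adjusted p = 0.115). Without both arrays numbered 2 or both numbered 3 the limma adjusted p was 0.0636 and 0.0968. Within each array, the log2 value of Serpinb6a minus that of Serpinb6b ran from 2.89 to 3.70 in Rb1+/+ and from 4.25 to 4.56 in Rb1L/L cultures. The difference between the paralogues was thus larger by 1.02 in Rb1L/L, given as a description because the pair was singled out after its values were seen. The probe sequences were not analysed here, so cross-hybridisation between the paralogues was not tested.

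The promoters of both paralogues are shown because their levels moved apart. Capitals mark matches to the motifs searched, on either strand. RefSeq lists 2 start sites for Serpinb6a, and the one printed, on the minus strand at chr13:34002745-34003044 of GRCm38.p6, holds 25 CpG dinucleotides and a GC content of 55.7%. Serpinb6b, on the plus strand at chr13:32965011-32965310, holds 4 CpG and 48.3% GC. The second Serpinb6a start, at chr13:33936034-33936333 with 5 CpG, is not printed, and no motif was found in it.

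Serpinb6a: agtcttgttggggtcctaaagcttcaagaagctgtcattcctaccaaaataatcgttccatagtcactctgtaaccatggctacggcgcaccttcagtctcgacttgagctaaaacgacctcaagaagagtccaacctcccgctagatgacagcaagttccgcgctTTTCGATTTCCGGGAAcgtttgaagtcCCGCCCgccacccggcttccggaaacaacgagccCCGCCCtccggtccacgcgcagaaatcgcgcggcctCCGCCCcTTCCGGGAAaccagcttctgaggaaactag
Serpinb6b: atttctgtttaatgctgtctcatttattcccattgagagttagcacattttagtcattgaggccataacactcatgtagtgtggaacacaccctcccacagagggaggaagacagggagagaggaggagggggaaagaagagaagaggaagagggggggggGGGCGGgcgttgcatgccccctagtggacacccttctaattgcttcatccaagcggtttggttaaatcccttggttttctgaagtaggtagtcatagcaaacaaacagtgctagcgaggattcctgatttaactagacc

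A further pair of neighbours and paralogues, Serpinb9 and Serpinb9b, also differed in direction, but neither passed. Serpinb9 encodes the cytosolic inhibitor of granzyme B that protects cells from cytotoxic granules. It was at 6.87, 6.82 and 6.70 in Rb1+/+ and at 6.95, 7.05 and 7.16 in Rb1L/L replicates 1, 2 and 3. The groups did not overlap, with a log2 fold change of 0.26 ± 0.07 (SE, limma adjusted p = 0.0578). Serpinb9b was at 11.21, 11.24 and 11.42 in Rb1+/+ and at 11, 11.17 and 10.83 in Rb1L/L replicates 1, 2 and 3. Every Rb1L/L culture was below every Rb1+/+ culture, by little in replicate 2, and the log2 fold change was -0.29 ± 0.10 (SE, limma adjusted p = 0.0895). The within-array difference, Serpinb9 minus Serpinb9b, was -4.50 on average in Rb1+/+ and -3.95 in Rb1L/L cultures. Serpinb9e, a further paralogue, had a log2 fold change of 0.04 ± 0.12 (SE, adjusted p = 0.874), with Rb1L/L replicate 2 at 6.11 and the other 5 arrays at 5.61 to 5.82.

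The promoters of Serpinb9 and Serpinb9b, both on the plus strand of chromosome 13, are shown side by side because they are the most alike among the tested Serpin genes and the levels of their genes differed in sign. Aligned from end to end they were 57.4% identical, whereas the other 149 pairs of promoters of different tested Serpin genes were 40.1% to 49.7% identical. The Serpinb9 window, chr13:33004291-33004590, holds TTTCACTTTC, which read on the other strand is the core of the interferon-stimulated response element (GAAA, any 2 bases, GAAA), starting 46 bases before the annotated start. No match to it is in the Serpinb9b window, chr13:33027164-33027463. Capitals mark the motif matches.

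Serpinb9: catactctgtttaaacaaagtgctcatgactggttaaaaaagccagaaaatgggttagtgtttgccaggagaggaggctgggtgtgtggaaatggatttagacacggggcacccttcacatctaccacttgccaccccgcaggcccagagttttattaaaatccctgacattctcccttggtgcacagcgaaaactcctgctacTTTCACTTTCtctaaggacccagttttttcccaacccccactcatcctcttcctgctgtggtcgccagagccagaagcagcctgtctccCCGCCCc
Serpinb9b: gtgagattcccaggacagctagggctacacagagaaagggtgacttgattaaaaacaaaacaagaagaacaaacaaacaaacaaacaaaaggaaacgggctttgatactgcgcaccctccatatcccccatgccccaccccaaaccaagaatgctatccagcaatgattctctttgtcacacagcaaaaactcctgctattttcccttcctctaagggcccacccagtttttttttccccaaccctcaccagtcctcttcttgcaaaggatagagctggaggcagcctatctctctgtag

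RefSeq promoters were matched for 15 of the 17 tested Serpin genes (not Serpina10 and Serping1), 18 windows in all, and searched on both strands for 7 motifs. Shares are of windows, and a gene with 2 windows had more than 1 chance of a match. The interferon element core was found in Serpinb6a and Serpinb9 (2 of 18 windows), and in 3.44% of all 32851 promoters in the table. The AP-1 site TGANTCA was found in Serpinb2 and Serpinb8 (3 windows, and 7.81% of all promoters). The STAT palindrome TTCNNNGAA was found in Serpina11, Serpinb2 and Serpinb6a (5 windows, and 8.30% of all). In Serpinb6a the first of its 2 matches overlaps the interferon element match. The TATA box TATAAA was found in Serpinb2 alone (2 windows, and 13.6% of all). The GC box GGGCGG was found in Serpinb6a, Serpinb6b, Serpinb9 and Serpinh1 (4 windows, and 35.7% of all). Neither the E2F site TTTNGCGC (1.38% of all) nor the heat shock element (0.603% of all) was found in these windows. A match is a run of letters, and binding was not measured.

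**Figure D3:**
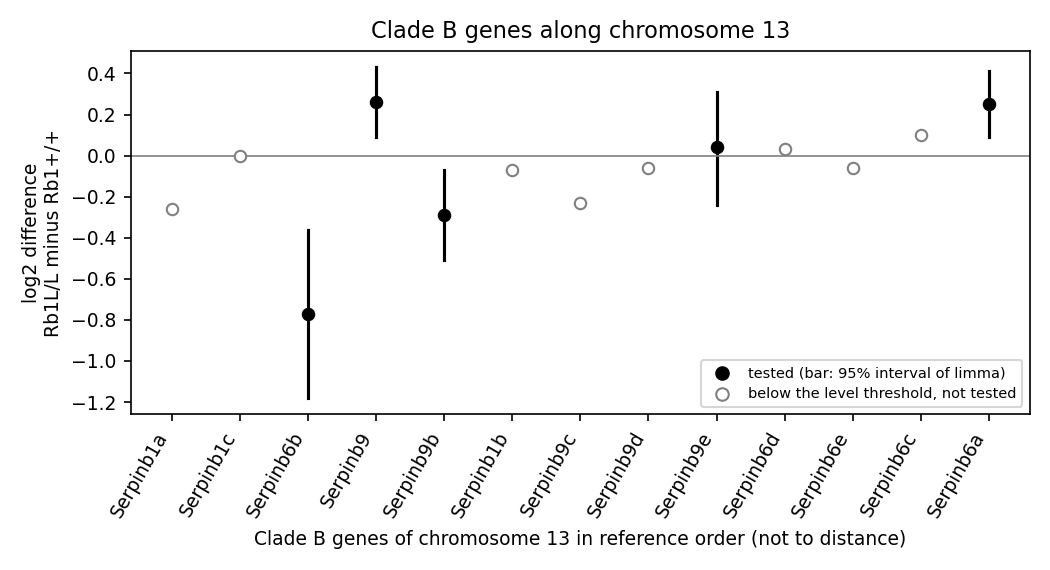
Log2 difference between Rb1L/L and Rb1+/+ means (vertical axis) for the 13 clade B genes of chromosome 13 on the array, in the order of the reference annotation (horizontal axis, not to distance); filled points are tested genes with the 95% interval of limma, open points lie below the level threshold. Serpinb6b is at -0.77 and Serpinb9 and Serpinb6a are at 0.26 and 0.25.

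The clade B genes lie in 2 groups, 13 of those on the array on chromosome 13 and the others on chromosome 1. On chromosome 13, Serpinb6b, Serpinb9 and Serpinb9b follow one another in the reference, Serpinb9e lies further on and Serpinb6a is the last of the group. Of the 5 tested genes 3 had a log2 fold change above 0 and 2 below, and the values ran from -0.77 to 0.26. Of the group on chromosome 1, Serpinb2 and Serpinb8 were tested.

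Serpinb2 encodes plasminogen activator inhibitor 2, which is mostly kept inside the cell. It stood at 6.85, 6.44 and 7.02 in Rb1+/+ and at 6.58, 6.16 and 6.36 in Rb1L/L replicates 1, 2 and 3. The groups overlapped, because Rb1+/+ replicate 2 was lower than Rb1L/L replicate 1, but in each same-numbered pair the Rb1L/L culture was the lower, by 0.27, 0.29 and 0.66 on the log2 scale. The log2 fold change was -0.41 ± 0.16 (SE, limma adjusted p = 0.128), and with the replicate block it passed (SE 0.09, limma adjusted p = 0.0282). It also passed without Rb1+/+ replicate 2, with a log2 fold change of -0.57 (limma adjusted p = 0.0367). With the block, 14.4% of all tested genes passed, 7.99% higher and 6.45% lower, and of the Serpin genes Serpina3n rose and Serpinb2 and Serpinb6b fell.

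Serpinb8, a cytosolic serpin, was at 7.77, 8.02 and 7.84 in Rb1+/+ and at 8.11, 7.90 and 7.56 in Rb1L/L replicates 1, 2 and 3. The Rb1L/L values lay on both sides of the Rb1+/+ values, and the log2 fold change was -0.02 ± 0.13 (SE, adjusted p = 0.948). Its interval of -0.32 to 0.29 is among the widest of the tested members. The 17 clade B genes below the threshold had means from 3.01 to 4.94. They include Serpinb5 (maspin), Serpinb7, Serpinb11, Serpinb12, Serpinb13 and the Serpinb3 genes, which are known from skin and other epithelia. Of 10 keratinocyte markers, 8 were tested and none passed.

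**Figure D4:**
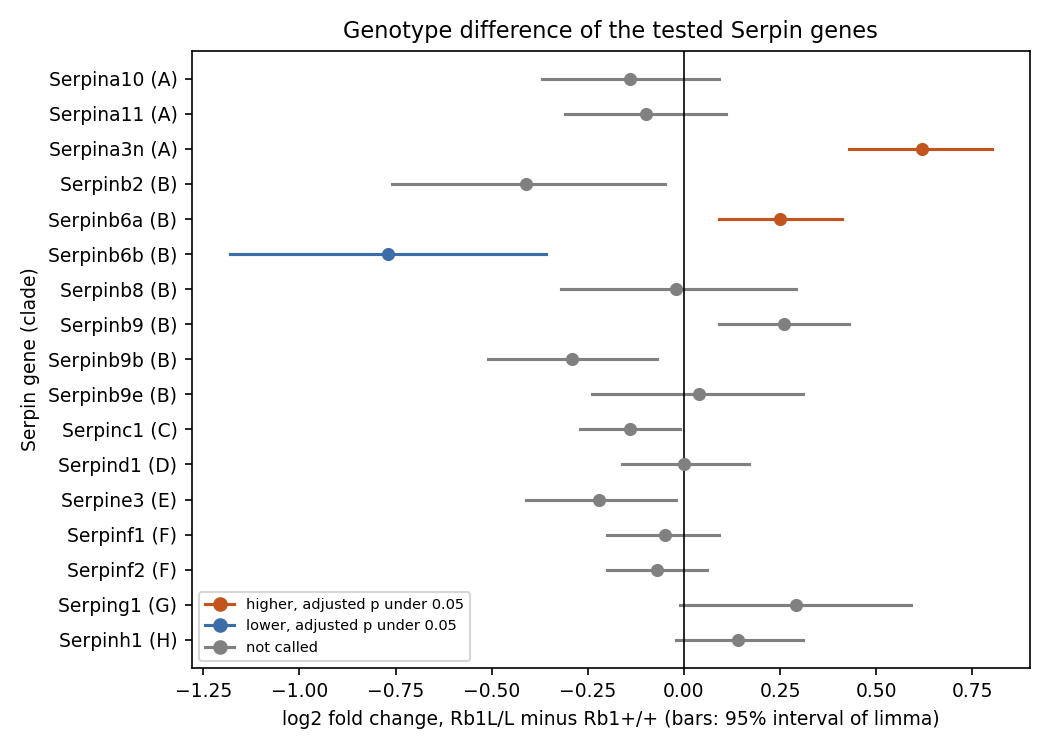
Log2 fold change of Rb1L/L against Rb1+/+ (horizontal axis) with the 95% interval of limma (bars) for the 17 tested Serpin genes (vertical axis, clade in brackets), coloured by call. Serpina3n and Serpinb6a are called higher and Serpinb6b lower, and 9 of the other 14 intervals include 0.

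None of the tested genes of clades C to H passed. Serpinc1 encodes antithrombin, the heparin-dependent inhibitor of thrombin. It was at 5.72, 5.72 and 5.78 in Rb1+/+ and at 5.64, 5.60 and 5.55 in Rb1L/L replicates 1, 2 and 3. The groups did not overlap, but the difference was small (log2 fold change -0.14 ± 0.06 SE, limma adjusted p = 0.134). Serpind1, which encodes heparin cofactor II, was at 5.08, 5.33 and 5.22 in Rb1+/+ and 5.21, 5.19 and 5.24 in Rb1L/L cultures, with a difference of 0.004 between the means. Both genes lay near the level threshold, and both are known as products of the liver.

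Serpine3, the only clade E gene analysed, measured 6.39, 6.21 and 6.52 in Rb1+/+ and 6.18, 6.21 and 6.08 in Rb1L/L replicates 1, 2 and 3. The replicates numbered 2 were almost equal, and the log2 fold change was -0.22 ± 0.08 (SE, limma adjusted p = 0.133). Serpinf2, which encodes the plasmin inhibitor α2-antiplasmin, had a log2 fold change of -0.07 ± 0.06 (SE, adjusted p = 0.491), with arrays from 6.57 to 6.70.

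Serpinf1 was at 11.90, 11.95 and 11.96 in Rb1+/+ and at 11.87, 11.97 and 11.80 in Rb1L/L replicates 1, 2 and 3. The groups overlapped and the log2 fold change was -0.05 ± 0.06 (SE, limma adjusted p = 0.61), with an interval of -0.20 to 0.09. Serping1 encodes C1 inhibitor, which blocks the first complement proteases and plasma kallikrein. Its values were 7.95, 8.22 and 8.28 in Rb1+/+ and 8.37, 8.71 and 8.24 in Rb1L/L replicates 1, 2 and 3. The replicates numbered 1 and 2 were higher in Rb1L/L and those numbered 3 were nearly equal, for a log2 fold change of 0.29 ± 0.13 (SE, limma adjusted p = 0.188).

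Serpinh1, the collagen chaperone, was at 10.99, 11.03 and 10.81 in Rb1+/+ and at 11.11, 11.12 and 11.03 in Rb1L/L replicates 1, 2 and 3. The lowest Rb1L/L value equalled the highest Rb1+/+ value at this precision. The log2 fold change was 0.14 ± 0.07 (SE, limma adjusted p = 0.233), with an interval of -0.02 to 0.31.

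Among the genes below the level threshold, none of 31 passed when all genes were fitted without the filter (limma, Benjamini-Hochberg adjusted), and 4 had an unadjusted p under 0.05. These were Serpinb9c (3.95 in Rb1+/+ and 3.72 in Rb1L/L on average), Serpini1, which encodes neuroserpin (4.46 and 4.65), Serpinb1a, an inhibitor of neutrophil elastase (4.93 and 4.67), and Serpinb10 (4.79 and 5.09). The threshold is the level that 90% of 1194 olfactory and vomeronasal receptor genes did not exceed, so these values do not show that the genes were expressed.

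The protease systems that serpins control were followed through 7 gene lists. No gene of any of them passed without both arrays numbered 1, where 87 higher and 5 lower genes remained among all 15462 tested. Without both numbered 2, 2 collagen genes and 1 cathepsin gene were lower (320 higher and 147 lower over all genes). Without both numbered 3, 2 collagen genes and 1 granule protease gene were lower and 1 plasminogen gene was higher (350 higher and 110 lower over all genes). Of 12 tested genes of plasminogen activation and its clearance, 1 rose and none fell (7.10% and 5.08% over all tested genes). Their median log2 fold change was -0.054. Plaur, the receptor for urokinase, rose from 10.42 ± 0.03 to 10.77 ± 0.01 (SD, n = 3; log2 fold change 0.35 ± 0.05 SE, limma adjusted p = 0.00748), and without both arrays numbered 1 the value was 0.34 (limma adjusted p = 0.107). The urokinase gene Plau (0.19 ± 0.10 SE) and the tissue activator gene Plat (-0.01 ± 0.08) did not pass. Lrp1, the receptor that takes up serpin-protease complexes, had a log2 fold change of -0.24 ± 0.07 (SE, limma adjusted p = 0.0584). It passed in 4 of 8 alternative settings that kept all arrays, among them median centring (-0.27, limma adjusted p = 0.0416). It passed in no fit with arrays left out. Vtn, which encodes the adhesive glycoprotein vitronectin, lay below the level threshold.

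Genes of collagen folding and processing are the setting in which Serpinh1 works. Of 25 tested, 6 fell and none rose, with a median of -0.11, where 5.08% of all tested genes were lower and 7.10% higher. P3h2, a prolyl hydroxylase, fell by 0.56 ± 0.07, Bmp1, the procollagen C-proteinase, by 0.40 ± 0.07 and Fkbp14, a prolyl isomerase, by 0.39 ± 0.08 on the log2 scale (SE; limma adjusted p = 0.00443, 0.0116 and 0.0221). Plod1, Plod2 and Creb3l1 were the others. The count was 2 to 5 in the fits without 1 array and 0 to 2 without both arrays of a number. Without both arrays numbered 1, P3h2 was at -0.51, Bmp1 at -0.32 and Fkbp14 at -0.43 (limma adjusted p = 0.0779, 0.125 and 0.081). P3h2 passed in all 6 fits without 1 array, and Fkbp14 did not without Rb1+/+ replicates 1 or 3 or Rb1L/L replicates 2 or 3 (limma adjusted p = 0.0725, 0.0607, 0.0748 and 0.0611). Ppib (0.10 ± 0.07 SE) and P4hb (0.06 ± 0.06), chaperones that act beside Serpinh1, did not pass.

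C1 inhibitor acts on some proteases of complement and the contact system. Of 15 tested genes of these systems, targets or not, 2 passed as higher and 1 fell (7.10% and 5.08% over all tested genes). Their median was 0.079. One of the higher genes, C1s1, which encodes a protease that C1 inhibitor blocks, entered the test only through its Rb1L/L arrays. The group means were 4.97 and 5.26, and the Rb1+/+ mean lay below the level threshold (log2 fold change 0.29 ± 0.07 SE, limma adjusted p = 0.0291). C1qa, which is not a protease, rose by 0.34 ± 0.09 (adjusted p = 0.0385, or 0.0576 with array weights) and Cd59a, which protects cells from the membrane attack complex, fell by 0.49 ± 0.12 (adjusted p = 0.0402, or 0.0653 with array weights). Among the fits without 1 array, C1s1 passed only without Rb1+/+ replicate 3 (limma adjusted p = 0.0404), and C1qa and Cd59a only without Rb1L/L replicate 1 (0.0364 for both). With the replicate block Masp1, a protease of the lectin pathway, fell by 0.32 (limma adjusted p = 0.0191). C1ra was below the threshold. Of 15 tested clotting genes, Tfpi2, another protease inhibitor, rose by 0.40 ± 0.11 (SE, limma adjusted p = 0.0456), a call lost in each of the 6 fits without 1 array (limma adjusted p = 0.0562 to 0.131). The thrombin receptor gene F2r had -0.04 ± 0.06.

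Of 13 cathepsin genes 1 rose and none fell, where 7.10% of all tested genes were higher and 5.08% lower. Ctso rose by 0.34 (limma adjusted p = 0.0364), and Ctsl stood at 0.06 ± 0.07 (SE). The call on Ctso was kept without Rb1+/+ replicate 3 (limma adjusted p = 0.0331) and lost without any other single array. With the replicate block Ctsk, the collagen-degrading cathepsin K, fell by 0.35 (limma adjusted p = 0.0498). Some clade B serpins inhibit granule proteases. Of 20 genes of granule serine proteases and the pore protein perforin (Prf1), 9 were tested and none passed in limma. Of the 9, 3 had an unadjusted limma p under 0.05, against 28.7% of all tested genes. One of the 3, Gzmk, entered the test only through its Rb1+/+ arrays. Its group means were 5.23 in Rb1+/+ and 5.03 in Rb1L/L, the latter below the level threshold. Ctsg and Gzmb, targets of Serpinb6a and Serpinb9, were below the threshold. With the replicate block Gzme and Mcpt8 fell, by 0.59 and 0.44 (limma adjusted p = 0.00789 and 0.0333). Of 24 tested inhibitors of other families, Reck, a membrane-bound inhibitor of metalloproteinases, fell by 0.38 ± 0.07 (SE, limma adjusted p = 0.0178) and none rose, for a median of -0.015. Of these 24 genes 5 had an unadjusted limma p under 0.05, against 28.7% of all tested genes. Among the 5 was Pi15 at 0.44 ± 0.15 (SE, limma adjusted p = 0.102), singled out after its value was seen. Reck did not pass without Rb1L/L replicates 1 or 2 (limma adjusted p = 0.0652 and 0.0539). The cystatin C gene Cst3 was at 0.14 ± 0.06 (SE, limma adjusted p = 0.155).

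Markers of other cell types were measured beside these genes. Of 10 tested macrophage and blood markers, 3 rose and 1 fell (7.10% and 5.08% over all tested genes). Their median log2 fold change was 0.238, and their mean log2 level per array was 6.97 to 7.46 in Rb1+/+ and 7.26 to 7.65 in Rb1L/L cultures. All 10 lay above the level threshold. Adgre1, which marks macrophages, was at 6.11, 5.72 and 6.25 in Rb1+/+ and 6.73, 7.44 and 6.73 in Rb1L/L replicates 1, 2 and 3. It had the largest rise of the list, and Cd14 and C1qa rose as well. Cx3cr1 fell by 0.34 (limma adjusted p = 0.0406). The other 6, among them Csf1r, Lyz2, Ptprc and C1qb, did not pass. Serpinb9, Serpinb6a, Serpina3n and the complement genes are also known from leukocytes or inflamed tissue, and the part of these markers in their levels was not tested. Liver markers ran from 5.51 to 5.53 in Rb1+/+ and from 5.43 to 5.50 in Rb1L/L on average, with none of 9 tested passing. None of 3 tested trophoblast markers passed, and Tpbpa was below the threshold. Of 7 tested endothelium markers Kdr rose by 0.58 (limma adjusted p = 0.00663), and of 8 tested neuron and glia markers Tubb3 fell by 0.48 (limma adjusted p = 0.0309).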

How the data were processed

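Total RNA of 6 MEF cultures was labelled and hybridised to Affymetrix arrays, 1 array per sample. The deposited values are log2 expression levels of 35556 transcript clusters; per the submitters' processing notes RMA and Partek were used; their versions and the annotation build are not given in the sources. Array medians ran from 6.393 to 6.449. The number of arrays limits the precision.

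Clusters with 1 gene symbol in the platform annotation (21789; 1621 had several and 12146 were not named) gave 19938 genes, each represented by its brightest cluster. Genes with a mean above 5.08 were tested in R 4.3.3 by a linear model with moderated variances and no covariate (limma 3.58.1), with Benjamini-Hochberg adjustment over 15462 genes and a threshold of 0.05. The analysis was also run on simulated independent genes and arrays, which lack the correlation of same-numbered samples given below. That run does not show how far the calls made here hold. The members and gene lists were chosen with earlier results of these data known.

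Values per array are given for each Serpin gene that passed, had an unadjusted p under 0.05, or was the brightest tested of its clade. Of each partner list, up to 3 passing genes of smallest p and a fixed set of central genes are named; other genes named were chosen after their values were seen. Same-numbered samples deviated together (correlations of 0.301, 0.243 and 0.298 over genes), and the design text speaks of pairs, so the fit with the replicate number as a block is given where it changed a call. Alternatives covered scaling, the level filter, the choice of cluster, variance models and left-out arrays. Promoter windows are RefSeq's, of build GRCm38.p6.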

Additional observations from a re-analysis of the deposited data

How the results depend on the processing

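The limits are few arrays and small differences. Serpina3n and Serpinb6b kept their direction in every fit run, and Serpinb6a did too while its call depended on the setting. The count of higher Serpin genes was 1, not 2, with the replicate block, after median centring and without the level filter, where Serpina3n alone passed. It was also 1 with a mean above log2 7, which removes Serpina3n and where Serpinb6a passed (limma adjusted p = 0.0327). When arrays were left out this count ran from 0 to 2. The count of lower Serpin genes was 2, not 1, with the block, 0 with a mean above log2 7 (which removes Serpinb6b), and 0 to 2 when arrays were left out. Leaving out both arrays of a number was an alternative chosen after seeing the data. Over all genes, fits without 1 array gave 424 to 850 higher and 186 to 591 lower genes. Without both arrays numbered 1, 2 and 3 there were 87, 320 and 350 higher and 5, 147 and 110 lower genes. In each such fit fewer samples were used.

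With the block, 1 cathepsin gene, 2 complement genes and 2 granule protease genes were lower. Median centring gave 1 lower cathepsin and 1 lower plasminogen gene, as did a mean above log2 7, which also left 1 higher complement gene. Trended and robust variances gave 2 lower cathepsin genes and 1 lower plasminogen gene. Array weights gave 0 higher clotting genes, 1 higher and 0 lower complement genes and 1 lower plasminogen gene, and no level filter gave 0 higher clotting genes. With arrays left out, the collagen count ran from 0 to 5 lower; clotting had 0 higher; and the counts of higher and lower cathepsin, complement, granule protease and other inhibitor genes and of higher plasminogen genes each ran from 0 to 1. The causes were not tested.

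Among genes that did not pass, the sign turned for Serpinb8 (0.03 with array weights) and Serpind1 (-0.02 after median centring, -0.0046 with array weights). Without 1 array, log2 fold changes ran from -0.14 to 0.13 for Serpinb8, -0.11 to 0.14 for Serpinb9e, -0.06 to 0.07 for Serpind1 and -0.09 to 0.04 for Plat. Without both arrays of a number, the sign turned for Serpina11 (0.03, number 2), Serpinb8 (0.03 and 0.11, numbers 2 and 3), Serpinb9e (-0.12, number 2), Serpind1 (-0.06 and -0.003, numbers 1 and 3), F2r (0.01, number 3) and Plat (0.08 and 0.02, numbers 1 and 2).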
